A study of Mus musculus with 9 samples.

Results

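The integrated stress response regulators are 10 genes, namely *Atf4*, *Atf5*, *Atf3*, *Cebpg*, *Ddit3*, *Trib3*, *Ppp1r15a*, *Chac1*, *Nupr1* and *Stc2*, out of 53077 genes listed by symbol for each RNA-seq library. They were chosen by symbol, with earlier results of these data in view, in which transcripts of this response were higher with *Slc2a1/3/5/6/8* gRNAs than with control gRNA. The values of that comparison are therefore given for the 10 genes as a description, without a p-value. The same holds for the *Slc2a1/3/5/6/8* gRNAs against the *Slc2a1* gRNA, a comparison that shares samples with it. The *Slc2a1* gRNA against control shares the control samples with the comparison the genes were chosen on. Adjusted p-values printed for the 10 genes there are therefore not independent of that choice. *Ddit3* had also been singled out earlier for its course with the *Slc2a1* gRNA, so its values are a description in every comparison. RNA came from the mouse myeloma line 5TGM1 made to express Cas9 constitutively from a lentivirus (5TGM1-Cas9), and all 3 groups carried it. Control cells were transduced with a gRNA against *Rosa26*, a locus whose disruption is harmless to cells. The *Slc2a1* gRNA targeted the gene for the glucose transporter GLUT1. Cells of the *Slc2a1/3/5/6/8* gRNA group carried that gRNA together with gRNAs against *Slc2a3*, *Slc2a5*, *Slc2a6* and *Slc2a8*, which also encode sugar transporters. For this group a line with the gRNAs other than that against *Slc2a1* was made and sorted first, and the *Slc2a1* gRNA was then introduced, so its handling and its genotype cannot be told apart. Each group had 3 biological replicates of gRNA-transduced cultures, which also contained cells without a disrupting mutation.

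In the integrated stress response, kinases that sense amino acid shortage, unfolded protein in the endoplasmic reticulum, haem shortage or double-stranded RNA phosphorylate the translation factor eIF2. General translation then falls while the mRNA of ATF4, a basic leucine zipper transcription factor, is translated more, through upstream open reading frames in its leader. ATF4 activates genes of amino acid synthesis and transport together with further regulators of the response, among them CHOP, the product of *Ddit3*. Plasma cells and myeloma cells secrete large amounts of immunoglobulin and are known for a high load on protein folding in the endoplasmic reticulum. RNA levels do not measure translation of *Atf4* or phosphorylation of eIF2.

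The libraries held between 21838805 and 30537105 estimated counts. Those of the *Slc2a1* gRNA group held 21939343 to 24211199, fewer than any control library, which held 27166930 to 30537105. Mitochondrial genes took 4.84 to 11.1% of the counts of a library. *Slc2a1* itself was at 59.5, 26.9 and 32.9 TPM (a level of transcripts corrected for gene length and library size) in control replicates 1, 2 and 3. It was at 37.1, 28.3 and 31.4 TPM with the *Slc2a1* gRNA and at 24.1, 31.5 and 19.1 TPM with the *Slc2a1/3/5/6/8* gRNAs, and the 3 groups overlapped. Of 9 plasma cell markers 7 had a mean of at least 1 TPM, with *Xbp1* the highest at 445. No marker of B cells, T cells, neutrophils, stroma or erythroid cells reached 1 TPM, and the only macrophage marker to do so was *Cd68*, at 52.8. The summed level of the 3 macrophage markers was 56.9 to 97.3 TPM in control, 30.8 to 47.0 with the *Slc2a1* gRNA and 33.3 to 44.1 with the *Slc2a1/3/5/6/8* gRNAs. Its part in the results was not tested.

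ATF4 binds DNA as a dimer with C/EBP family proteins at a composite element, searched here as TGATGNAA on both strands, which reads TTNCATCA on the opposite strand. The element lay in 4 of the 11 promoter windows of the 10 genes (250 bases before to 50 after the transcription start, RefSeq, GRCm38.p6), those of *Atf3*, *Chac1*, *Nupr1* and *Trib3*. Of all 32851 windows of this length, 3.97% held it. Among other ATF4 target genes 13 of 40 windows, or 32.5%, held it. The 4 matches are shown here as the sequence context of genes that ATF4 is known to regulate, 5′ to 3′ on the strand of the gene, with the matching letters in capitals. The *Atf3* stretch covers chr1:191183334-191183583 on the minus strand, and the *Chac1* stretch chr2:119350992-119351241 on the plus strand. That of *Nupr1* covers chr7:126625471-126625720 on the minus strand. These 3 are the 250 bases before the RefSeq start, with the element at -110 to -103 in *Atf3* and *Nupr1* and at -193 to -186 in *Chac1*. In *Atf3* and *Nupr1* that start lies well inside the gene span given below. The 5′ end of that span is further upstream and was not searched. For *Trib3* the element lay after the start, at 15 to 22, and 30 bases around it are given, chr2:152344028-152344057 on the minus strand.
Atf3: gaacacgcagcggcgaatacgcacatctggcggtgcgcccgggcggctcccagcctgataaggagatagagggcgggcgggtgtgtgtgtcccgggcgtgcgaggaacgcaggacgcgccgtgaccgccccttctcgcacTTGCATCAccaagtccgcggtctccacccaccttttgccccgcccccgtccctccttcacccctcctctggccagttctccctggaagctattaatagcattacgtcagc
Chac1: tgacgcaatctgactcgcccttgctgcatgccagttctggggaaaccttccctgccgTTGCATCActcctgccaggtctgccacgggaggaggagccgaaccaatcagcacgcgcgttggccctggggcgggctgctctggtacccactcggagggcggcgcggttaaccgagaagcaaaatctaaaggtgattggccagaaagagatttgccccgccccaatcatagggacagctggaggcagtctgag
Nupr1: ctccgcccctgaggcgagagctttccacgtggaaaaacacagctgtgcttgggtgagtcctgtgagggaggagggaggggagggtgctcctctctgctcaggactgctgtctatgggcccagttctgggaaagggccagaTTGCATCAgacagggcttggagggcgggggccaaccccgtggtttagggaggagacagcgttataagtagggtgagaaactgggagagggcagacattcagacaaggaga
Trib3: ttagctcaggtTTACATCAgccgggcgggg
The same 8 letters, TTGCATCA, stood in *Atf3*, *Chac1* and *Nupr1*, and TTACATCA stood in *Trib3*. The windows of *Atf4*, *Atf5*, *Ddit3*, *Stc2*, *Ppp1r15a* and *Cebpg* held no match, which says only that these letters are not in those windows. A match is a description of the sequence and not a measured binding site.

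In control gRNA-transduced cells *Atf4* was the most abundant of the 10 transcripts, with 278 ± 56.5 TPM (SD, n = 3), above 99.4% of all genes. *Nupr1* followed at 91.0 ± 6.54 TPM, *Atf5* at 90.3 ± 17.8, *Trib3* at 89.3 ± 17.7, *Ddit3* at 82.9 ± 14.5 and *Ppp1r15a* at 77.1 ± 39.6 (SD, n = 3 each). These 5 levels lay within the spread between replicates of one another. *Chac1* was at 49.97 ± 9.76 TPM, *Cebpg* at 23.0 ± 4.44 and *Stc2* at 5.39 ± 1.76 (SD, n = 3 each). *Atf3*, an early-induced stress factor, had 0.147 ± 0.152 TPM (SD, n = 3), from 1, 6 and 17 estimated counts in the 3 control libraries. In every control replicate *Atf4* was the highest of the 10 and *Atf3* the lowest.

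**Figure D1:**
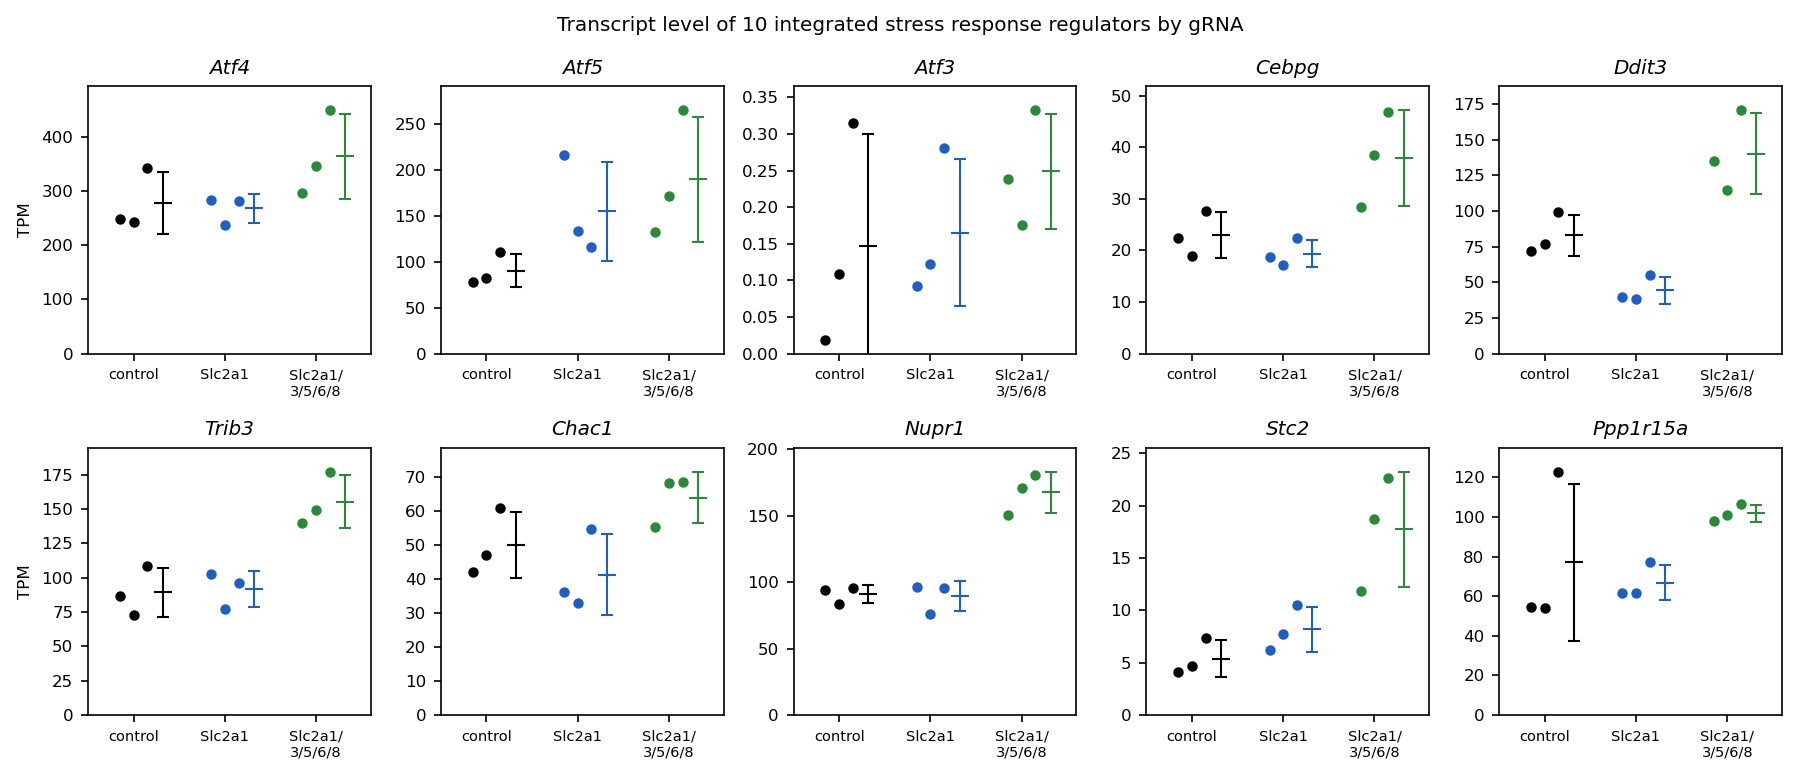
TPM of each of the 10 regulators (vertical axes, linear, from 0) in the 3 replicates of each gRNA group, in the order of replicates 1, 2 and 3. Points are samples, and the horizontal line with its bar is the mean ± SD, cut off at 0 for *Atf3* in control. *Ddit3* is lowest with the *Slc2a1* gRNA (37.97 to 55.3) and highest with the *Slc2a1/3/5/6/8* gRNAs (115 to 171), whereas *Nupr1* and *Trib3* stand apart in the latter group alone.

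*Atf4* (chr15:80255184-80257541, plus strand, GRCm38, GENCODE M21, as are all gene positions here) encodes the central factor of the response. It was at 248, 243 and 343 TPM in control replicates 1, 2 and 3, at 284, 237 and 282 with the *Slc2a1* gRNA, and at 296, 347 and 449 with the *Slc2a1/3/5/6/8* gRNAs. Control replicate 3 exceeded the lowest *Slc2a1/3/5/6/8* gRNA replicate, so these groups overlapped in TPM. Fold changes were taken from TMM-scaled counts in a fit over all 9 samples. *Atf4* was 1.35-fold higher with the *Slc2a1/3/5/6/8* gRNAs than in control (log2 fold change 0.44, SE 0.12). With the *Slc2a1* gRNA the log2 fold change against control was 0.11 (95% interval -0.14 to 0.37, adjusted p = 0.613, edgeR quasi-likelihood test with Benjamini-Hochberg adjustment over all genes, as are all adjusted p-values here). Between the transporter-deleted groups it was 0.32 (SE 0.12), which did not pass the threshold. In bulk RNA such a difference can be a change in each cell or in the share of cells that express the gene, and these cannot be told apart.

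*Atf5* (chr7:44812256-44816658, minus strand) encodes a related leucine zipper factor whose mRNA is also controlled in translation by upstream reading frames. Its levels were 77.6, 82.6 and 111 TPM in control, 216, 133 and 116 with the *Slc2a1* gRNA, and 133, 171 and 265 with the *Slc2a1/3/5/6/8* gRNAs. All samples of both transporter-deleted groups lay above the control samples, and the deleted groups overlapped each other. *Atf5* rose 1.91-fold with the *Slc2a1* gRNA (log2 fold change 0.93, SE 0.21, adjusted p = 0.0300, edgeR), a call that was lost with DESeq2 (adjusted p = 0.0513) and with limma on log2(TPM + 1) and log2(TPM + 0.1) (adjusted p = 0.218 and 0.204). Against control it was 2.22-fold higher with the *Slc2a1/3/5/6/8* gRNAs (log2 fold change 1.15, SE 0.21). The difference between the deleted groups did not pass the threshold (0.22, 95% interval -0.23 to 0.67), and without *Slc2a1* gRNA replicate 3 it was -0.0938.

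*Atf3* (chr1:191170296-191218039, minus strand) was close to the detection limit throughout. It had 0.0182, 0.108 and 0.315 TPM in control, 0.0929, 0.122 and 0.281 with the *Slc2a1* gRNA, and 0.238, 0.176 and 0.332 with the *Slc2a1/3/5/6/8* gRNAs. Behind these stood 1 to 17 estimated counts in control, 4 to 13 with the *Slc2a1* gRNA and 7 to 16 with the *Slc2a1/3/5/6/8* gRNAs. The groups overlapped, and no difference passed the threshold. Whether depth or the spread between replicates limited this was not tested. The 95% interval of the log2 fold change ran from -1.13 to 2.06 with the *Slc2a1* gRNA and from -0.46 to 2.69 with the *Slc2a1/3/5/6/8* gRNAs.

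*Cebpg* (chr7:35046422-35056573, minus strand) encodes C/EBPγ, which dimerizes with ATF4. It was at 22.4, 18.9 and 27.7 TPM in control, 18.7, 17.1 and 22.4 with the *Slc2a1* gRNA, and 28.4, 38.5 and 46.9 with the *Slc2a1/3/5/6/8* gRNAs. All 3 of the latter lay above every other sample, and the remaining groups overlapped. The log2 fold change was 0.86 (SE 0.11) with the *Slc2a1/3/5/6/8* gRNAs against control and 0.66 (SE 0.11) against the *Slc2a1* gRNA. For the *Slc2a1* gRNA against control the counts gave 0.20 (95% interval -0.04 to 0.44, adjusted p = 0.327, edgeR), whereas the TPM means pointed the other way. The deposited length of *Cebpg*, an average over its transcripts weighted by their abundance, was 3730 to 4224 bases with the *Slc2a1* gRNA, 3020 to 3566 in control and 3394 to 3632 with the *Slc2a1/3/5/6/8* gRNAs. TPM divides by this length and the count does not. On TPM the median of all genes also shifted, to -0.111 with limma on log2(TPM + 1). What set the *Cebpg* values apart was not tested. Lengths of *Atf3* (1906 bases) and *Chac1* (1637 bases) were the same in every sample.

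*Ddit3* (chr10:127290774-127296288, plus strand) encodes CHOP, a C/EBP family factor linked to cell death under prolonged stress. Relative to control it was lower in one deleted group and higher in the other. Control replicates had 72.2, 77.1 and 99.4 TPM, *Slc2a1* gRNA replicates 39.6, 37.97 and 55.3, and *Slc2a1/3/5/6/8* gRNA replicates 135, 115 and 171. No sample of one group fell within the range of another. With the *Slc2a1* gRNA *Ddit3* was at 0.596 of control (log2 fold change -0.75, SE 0.15). With the *Slc2a1/3/5/6/8* gRNAs it was 1.79-fold higher than in control (log2 fold change 0.84, SE 0.14). Between the deleted groups it differed 3.00-fold (log2 fold change 1.58, SE 0.15). Of its exonic bases, 10.9% overlap other gene models, among them *Mars* on the opposite strand and a short second model that is also named *Ddit3*. Whether the counting used strand is not given in the sources used here, so reads from these overlaps cannot be assigned.

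*Trib3* and *Ppp1r15a* act as brakes on the response. *Trib3* (chr2:152337422-152344032, minus strand) encodes a pseudokinase that is induced by ATF4 and CHOP and represses ATF4 activity. It was at 86.6, 73.1 and 108 TPM in control, 103, 77.0 and 95.8 with the *Slc2a1* gRNA, and 139.7, 149 and 177 with the *Slc2a1/3/5/6/8* gRNAs. The last group lay wholly above the others, which overlapped. The log2 fold change was 0.86 (SE 0.11) with the *Slc2a1/3/5/6/8* gRNAs against control, a 1.81-fold difference, and 0.66 (SE 0.11) against the *Slc2a1* gRNA. For the *Slc2a1* gRNA against control it was 0.20 (95% interval -0.04 to 0.43, adjusted p = 0.314, edgeR).

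*Ppp1r15a* (chr7:45522916-45526268, minus strand) encodes GADD34, which directs a phosphatase to eIF2 and so ends the block of translation. Its levels were 54.3, 54.0 and 123 TPM in control, 61.7, 61.7 and 77.2 with the *Slc2a1* gRNA, and 97.8, 101 and 106 with the *Slc2a1/3/5/6/8* gRNAs. Control replicate 3 exceeded every other sample, so control overlapped both groups. The log2 fold change was 0.61 (SE 0.17) with the *Slc2a1/3/5/6/8* gRNAs against control and 0.72 (SE 0.16) against the *Slc2a1* gRNA. Against control the *Slc2a1* gRNA gave -0.11 (95% interval -0.46 to 0.25, adjusted p = 0.757, edgeR), and 0.13 without control replicate 3.

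*Chac1*, *Nupr1* and *Stc2* are effectors downstream of ATF4. *Stc2* (chr11:31357307-31370074, minus strand) encodes the secreted glycoprotein stanniocalcin 2. It was at 4.09, 4.70 and 7.39 TPM in control, 6.20, 7.78 and 10.5 with the *Slc2a1* gRNA, and 11.8, 18.7 and 22.7 with the *Slc2a1/3/5/6/8* gRNAs. The *Slc2a1/3/5/6/8* gRNA samples lay above all others, and control overlapped the *Slc2a1* gRNA group in TPM. *Stc2* had the largest fold change of the 10 genes with the *Slc2a1/3/5/6/8* gRNAs against control, 3.25-fold (log2 fold change 1.70, SE 0.10). It rose 1.62-fold with the *Slc2a1* gRNA (log2 fold change 0.70, SE 0.10, adjusted p = 0.00698, edgeR). That call was lost with limma on log2(TPM + 1) and log2(TPM + 0.1) (adjusted p = 0.174 and 0.148). It was made in 6 of the 9 fits that each left out a sample. *Stc2* was 2.00-fold higher with the *Slc2a1/3/5/6/8* gRNAs than with the *Slc2a1* gRNA (1.00, SE 0.10).

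*Nupr1* (chr7:126623249-126630861, minus strand) encodes a small stress-induced chromatin protein. Its levels were 94.2, 83.5 and 95.4 TPM in control, 96.4, 76.4 and 95.7 with the *Slc2a1* gRNA, and 151, 171 and 181 with the *Slc2a1/3/5/6/8* gRNAs. The first 2 groups covered almost the same range, and the *Slc2a1/3/5/6/8* gRNA samples stood above both. *Nupr1* was 1.95-fold higher with the *Slc2a1/3/5/6/8* gRNAs than in control (log2 fold change 0.97, SE 0.10) and 0.82 higher on the log2 scale than with the *Slc2a1* gRNA (SE 0.10). With the *Slc2a1* gRNA against control it gave 0.14 (95% interval -0.08 to 0.36, adjusted p = 0.438, edgeR).

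*Chac1* (chr2:119351229-119354381, plus strand) encodes a γ-glutamylcyclotransferase that degrades glutathione. It was at 42.1, 46.9 and 60.9 TPM in control, 36.2, 32.8 and 54.7 with the *Slc2a1* gRNA, and 55.1, 68.1 and 68.3 with the *Slc2a1/3/5/6/8* gRNAs. Control overlapped both other groups. *Chac1* had the smallest fold change of the 10 genes with the *Slc2a1/3/5/6/8* gRNAs against control, 1.34-fold (log2 fold change 0.43, SE 0.13). That of *Atf4* was almost the same (0.44, SE 0.12), so their order is not settled. Against the *Slc2a1* gRNA the difference was 0.57 (SE 0.13), and for the *Slc2a1* gRNA against control it was -0.14 (95% interval -0.42 to 0.15, adjusted p = 0.586, edgeR).

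**Figure D2:**
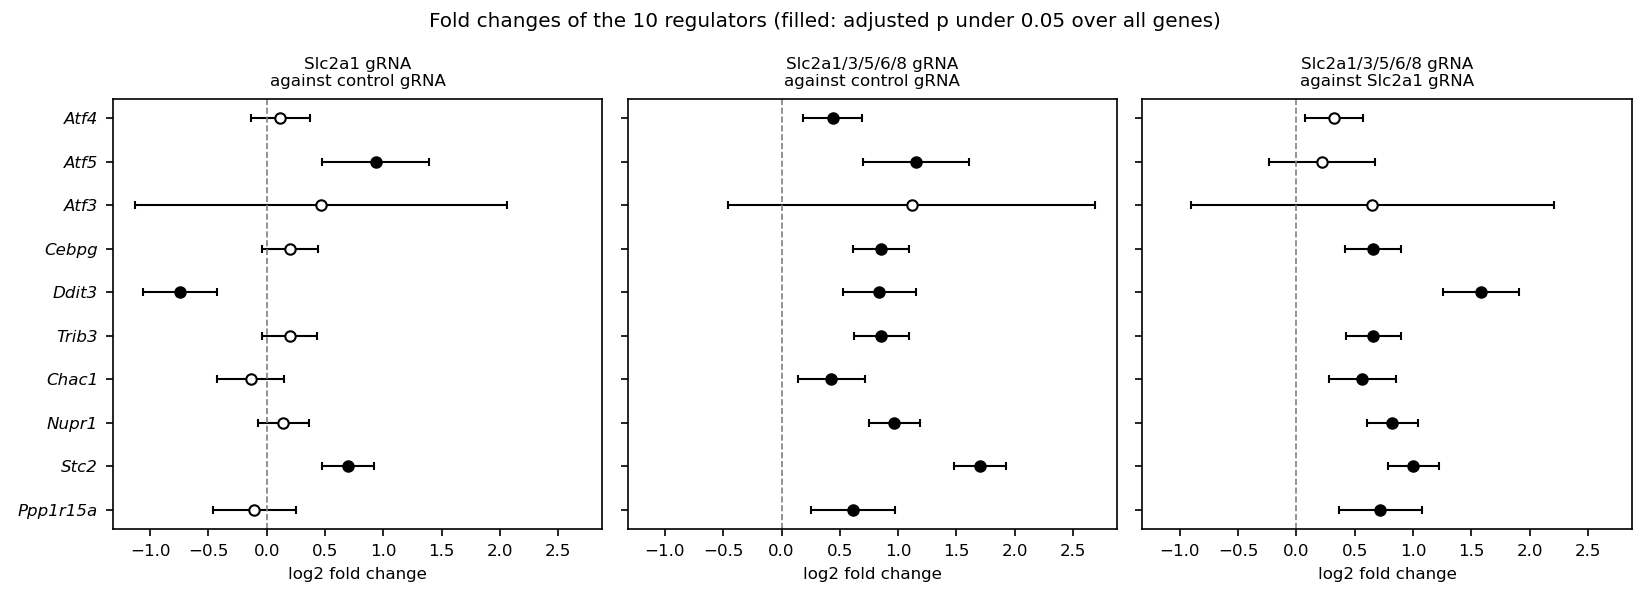
Log2 fold change of each regulator with its 95% interval in the 3 comparisons, from edgeR on counts of all 9 samples. Filled points passed an adjusted p of 0.05 over all 13834 genes tested. In the middle panel, whose comparison the genes were chosen on, 9 of 10 points are filled and all lie above 0, and in the left panel *Ddit3* is filled below 0 and *Atf5* and *Stc2* above it.

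All 10 regulators passed the filter on low counts and were tested among 13834 genes. With the *Slc2a1* gRNA against control 2 passed the threshold as higher (*Atf5* and *Stc2*), 1 as lower (*Ddit3*, whose course here was known beforehand), and 7 did not pass. Of all genes tested 4.64% passed, 2.25% as higher and 2.39% as lower. The median log2 fold change of the 10 genes was 0.17, and that of all genes -0.0013. This comparison shares its control samples with the one the genes were chosen on, so nothing is read from the count. Whether *Atf5*, *Stc2* and *Ddit3* passed the adjusted threshold changed when single libraries were left out. None of the 3 passed in all 9 fits that each left out a sample. No regulator passed without control replicate 1, control replicate 2 or *Slc2a1* gRNA replicate 2, and 1 passed without control replicate 3 or *Slc2a1* gRNA replicate 1. Over all genes, the calls in those 5 fits numbered 11 to 72 in place of 642. In each of those 5 fits 3 of the 10 regulators had an unadjusted p under 0.05 (edgeR). Over the 9 fits the log2 fold change of *Stc2* was 0.64 to 0.76, that of *Ddit3* -0.84 to -0.60 and that of *Atf5* 0.60 to 1.25. *Atf5* gave 0.60 without *Slc2a1* gRNA replicate 1, its highest sample in that group.

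With the *Slc2a1/3/5/6/8* gRNAs against control 9 regulators passed as higher, all but *Atf3*, and none as lower. Of all genes 15.9% passed, 8.49% as higher and 7.44% as lower. The genes were selected on this comparison, so nothing is read from their count. Their median log2 fold change was 0.86, beside 0.0072 for all genes. Within the group the order ran from *Stc2* and *Atf5* at 1.70 and 1.15 down to *Ppp1r15a*, *Atf4* and *Chac1* at 0.61, 0.44 and 0.43. When each sample was left out in turn, some of these calls were lost. *Atf4* did not pass without control replicate 1, 2 or 3 (0.36, 0.47 and 0.50) or without *Slc2a1/3/5/6/8* gRNA replicate 3 (0.40). *Chac1* passed in 3 of the 9 fits and *Ppp1r15a* in 5. Without the replicate block 7 regulators passed in place of 9.

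Between the deleted groups 7 regulators passed, all of them higher with the *Slc2a1/3/5/6/8* gRNAs, and *Atf4*, *Atf3* and *Atf5* did not. Of all genes 2.31% passed, 1.36% as higher and 0.947% as lower. This comparison shares its *Slc2a1/3/5/6/8* gRNA samples with the one the genes were chosen on and is not independent of it, so nothing is read from the count. *Ddit3*, which is among the 7, is a description here as in every comparison. The median log2 fold change of the 10 genes was 0.66, and that of all genes 0.0034. When a sample was left out, 3 regulators passed without *Slc2a1* gRNA replicate 2 and 4 without *Slc2a1* gRNA replicate 3. *Trib3* and *Cebpg* each passed in 7 of the 9 fits, *Ppp1r15a* in 3 and *Chac1* in 2. Without the replicate block 5 regulators passed in place of 7, and 129 of all genes in place of 319.

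To see how the regulators stood relative to *Atf4* transcript, each TPM was divided by that of *Atf4* in the same sample, a description chosen after the values were seen and not tested. *Ddit3* was at 0.291, 0.318 and 0.290 per *Atf4* in control, 0.140, 0.160 and 0.196 with the *Slc2a1* gRNA, and 0.456, 0.332 and 0.380 with the *Slc2a1/3/5/6/8* gRNAs. The 3 ranges did not overlap. *Stc2* was at 0.0165, 0.0194 and 0.0215 per *Atf4* in control, 0.0219, 0.0328 and 0.0373 with the *Slc2a1* gRNA, and 0.0399, 0.0539 and 0.0505 with the *Slc2a1/3/5/6/8* gRNAs, so it too was ordered without overlap. *Atf5* was at 0.313 to 0.340 in control, below all samples of both deleted groups (0.410 to 0.762 and 0.448 to 0.590). *Nupr1*, *Trib3* and *Cebpg* were above both other groups only with the *Slc2a1/3/5/6/8* gRNAs, at 0.403 to 0.508, 0.394 to 0.472 and 0.0960 to 0.111 per *Atf4*. *Chac1* and *Ppp1r15a* kept overlapping ratios in all groups, at 0.128 to 0.196 and 0.217 to 0.358.

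**Figure D3:**
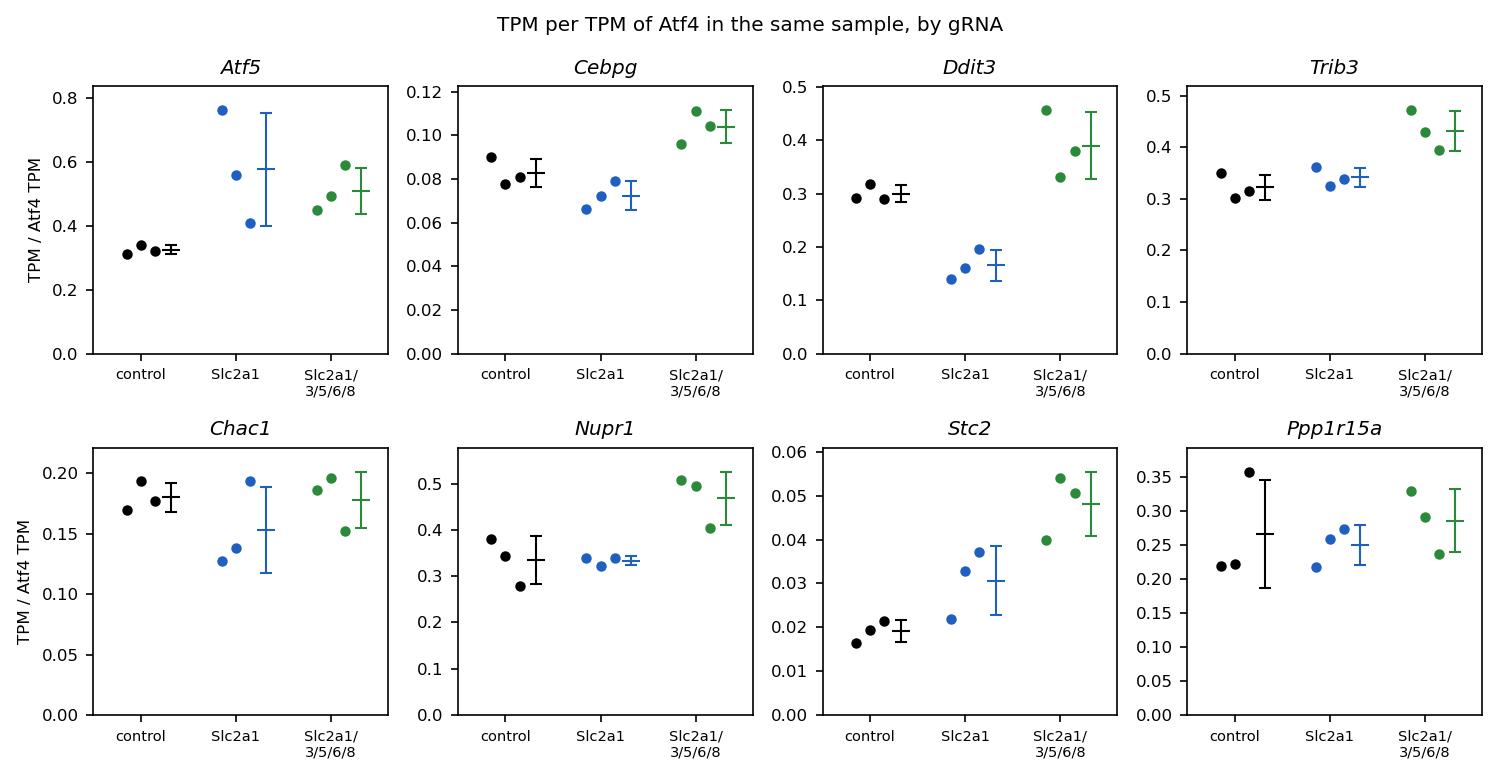
TPM of 8 regulators divided by the TPM of *Atf4* in the same sample (vertical axes, linear, from 0), by gRNA group. Points are replicates 1, 2 and 3, and the line with its bar is the mean ± SD. The ranges of *Ddit3* do not overlap between the 3 groups (0.140 to 0.196 with the *Slc2a1* gRNA, 0.290 to 0.318 in control, 0.332 to 0.456 with the *Slc2a1/3/5/6/8* gRNAs), whereas those of *Chac1* and *Ppp1r15a* do.

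Genes around the regulators were counted on 5 lists, which were likewise drawn up with earlier results in view. Upstream stood a list of 24 genes. It held those for the eIF2 kinases, phosphatases, eIF2 subunits and the exchange factor eIF2B, and others such as *Eif2a*. In the *Slc2a1* gRNA group 0 passed with edgeR (3 had an unadjusted p under 0.05, and DESeq2 called 2), and the smallest adjusted p was that of *Eif2b5*, a subunit of eIF2B (log2 fold change 0.40, adjusted p = 0.0756). In the *Slc2a1/3/5/6/8* gRNA group 2 of 24 passed, 8.33%, beside 15.9% of all genes. *Ppp1r15b*, which encodes the constitutive partner of the eIF2 phosphatase, was higher (0.57, SE 0.14), and *Eif2a*, an initiation factor distinct from eIF2, was lower (-0.47, SE 0.13). Leaving out any 1 control library or *Slc2a1/3/5/6/8* gRNA replicate 3 left 0 of the 2 calls, and 4 genes passed without *Slc2a1/3/5/6/8* gRNA replicate 2. The 2 genes that edgeR called do not include a kinase gene. Of the kinase genes *Eif2ak3* came closest to passing against control, at -0.37 with the *Slc2a1* gRNA and -0.33 with the *Slc2a1/3/5/6/8* gRNAs. Medians of this list were -0.01 and 0.06, and 0 genes passed between the deleted groups with edgeR (5 at an unadjusted p under 0.05, and 1 with DESeq2).

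Of 32 genes for leucine zipper factors that can pair with ATF4 or belong to the same class, 24 were tested. Against control the *Slc2a1* gRNA group had 0 that passed with edgeR (2 at an unadjusted p under 0.05) or DESeq2, 3 without the filter on low counts and 5 in a fit of only the 2 groups, and *Creb3l2* had the smallest adjusted p (-0.38, adjusted p = 0.152, edgeR). In *Slc2a1/3/5/6/8* gRNA-transduced cells 3 passed, 12.5%, all as higher, beside 15.9% of all genes (8.49% as higher). *Cebpb*, a C/EBP partner of both ATF4 and CHOP, went from a mean of 91.7 to 143 TPM (log2 fold change 0.75, SE 0.18), while *Nfe2l1* gave 0.43 and *Creb1* 0.38. The 3 became 0 without control replicate 1 or 2, 1 without control replicate 3 or *Slc2a1/3/5/6/8* gRNA replicate 3, and 5 without *Slc2a1/3/5/6/8* gRNA replicate 1. *Nfe2l1*, an activator of proteasome genes, was the only one to pass between the deleted groups (0.57, SE 0.12), and leaving out single samples gave 0 to 3 genes.

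Downstream, 47 of 49 listed ATF4 target genes outside the 10 regulators were tested. In *Slc2a1* gRNA-transduced cells 3 rose (edgeR), 6.38%, beside 4.64% of all genes, and none fell, whereas DESeq2 called 9, of which 8 were higher. These were *Ddit4*, an inhibitor of the growth kinase complex mTORC1 (mean 47.7 to 91.6 TPM, log2 fold change 1.11, SE 0.12, adjusted p = 0.00330, edgeR), the mitochondrial one-carbon enzyme gene *Mthfd1l* (0.74, adjusted p = 0.0192, edgeR) and the glutamine transporter gene *Slc1a5* (0.59, adjusted p = 0.0307, edgeR). The 3 became 1 without any 1 of the control libraries or *Slc2a1* gRNA replicate 1 or 2, and 5 to 7 without any 1 of the other libraries. With the *Slc2a1/3/5/6/8* gRNAs 23 were higher, 48.9%, beside 15.9% of all genes (8.49% as higher), none were lower and 24 did not pass. The smallest adjusted p-values belonged to the neutral amino acid transporter gene *Slc1a4* (13.5 to 29.0 TPM, log2 fold change 1.13, SE 0.10), *Ddit4* (1.12) and the glycine transporter gene *Slc6a9* (0.87). Median log2 fold changes of the list were 0.17 and 0.38. This count of 23 was 8 without *Slc2a1/3/5/6/8* gRNA replicate 3, 9 without control replicate 1 or 3 and 12 without control replicate 2. Under the alternatives that kept all samples it ran from 3, with limma on log2(TPM + 1), to 27. Between the deleted groups 4 passed as higher, 8.51%, beside 2.31% of all genes (1.36% as higher), namely *Slc1a4* (0.85), *Slc3a2* (0.63), *Herpud1* (0.51) and *Wars* (0.55). That count was 1 without *Slc2a1* gRNA replicate 2 or 3, 2 without any 1 of the control libraries or *Slc2a1/3/5/6/8* gRNA replicate 2, and 9 without *Slc2a1/3/5/6/8* gRNA replicate 1.

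Of 11 listed CHOP targets, 10 were tested. With the *Slc2a1* gRNA, where *Ddit3* was lower, the autophagy kinase gene *Ulk1* was the 1 gene to pass, 10% beside 4.64% of all genes (-0.45, adjusted p = 0.0332, edgeR), and it did not pass without any 1 of the control libraries or *Slc2a1* gRNA replicate 1 or 2. With the *Slc2a1/3/5/6/8* gRNAs *Wars*, also on the ATF4 list, and *Bbc3*, which encodes the cell death protein PUMA, were higher (0.79 and 0.65), and *Ulk1* was lower (-0.38). These 3 are 30% of the list, beside 15.9% of all genes, and 0 passed with limma on log2(TPM + 1) (3 at an unadjusted p under 0.05). Medians were 0.05 and -0.07. Between the deleted groups *Wars* (0.55, SE 0.12) and *Bbc3* (0.53, SE 0.12) passed as higher, 20% beside 2.31% of all genes, but in each fit that left out a sample at most 1 gene of this list passed.

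Targets of ATF6 and XBP1, the other branches of the unfolded protein response, were counted as the neighbouring pathway. Of 25 genes 6 fell with the *Slc2a1* gRNA (edgeR), 24.0%, beside 4.64% of all genes (2.39% as lower), and none rose, whereas DESeq2 called 10, of which 1 was higher. *Sec24d* gave -0.55 (adjusted p = 0.0255, edgeR), *Calr* -0.53 (adjusted p = 0.0277, edgeR) and *Hsp90b1* -0.51 (adjusted p = 0.0406, edgeR). Without any 1 of the 3 control libraries, or without *Slc2a1* gRNA replicate 1 or 2, 0 genes of the list passed with edgeR (8 to 15 had an unadjusted p under 0.05), and 3 passed without *Slc2a1* gRNA replicate 3. In the *Slc2a1/3/5/6/8* gRNA group 13 were lower (edgeR), 52.0%, beside 15.9% of all genes (7.44% as lower), and none were higher, whereas DESeq2 called 17, of which 1 was higher. The chaperone gene *Calr* went from a mean of 568 to 279.6 TPM (log2 fold change -0.94, SE 0.12), *Sdf2l1* from 74.2 to 33.4 TPM (-1.07) and *Manf* gave -0.72. The 13 genes became 7 without control replicate 2, 6 without control replicate 3 and 7 without *Slc2a1/3/5/6/8* gRNA replicate 3. Medians of this list were -0.33 and -0.44. Between the deleted groups *Dnajb11* was the only gene of this list to pass (-0.47, SE 0.11), and leaving out single samples gave 0 to 2.

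**Figure D4:**
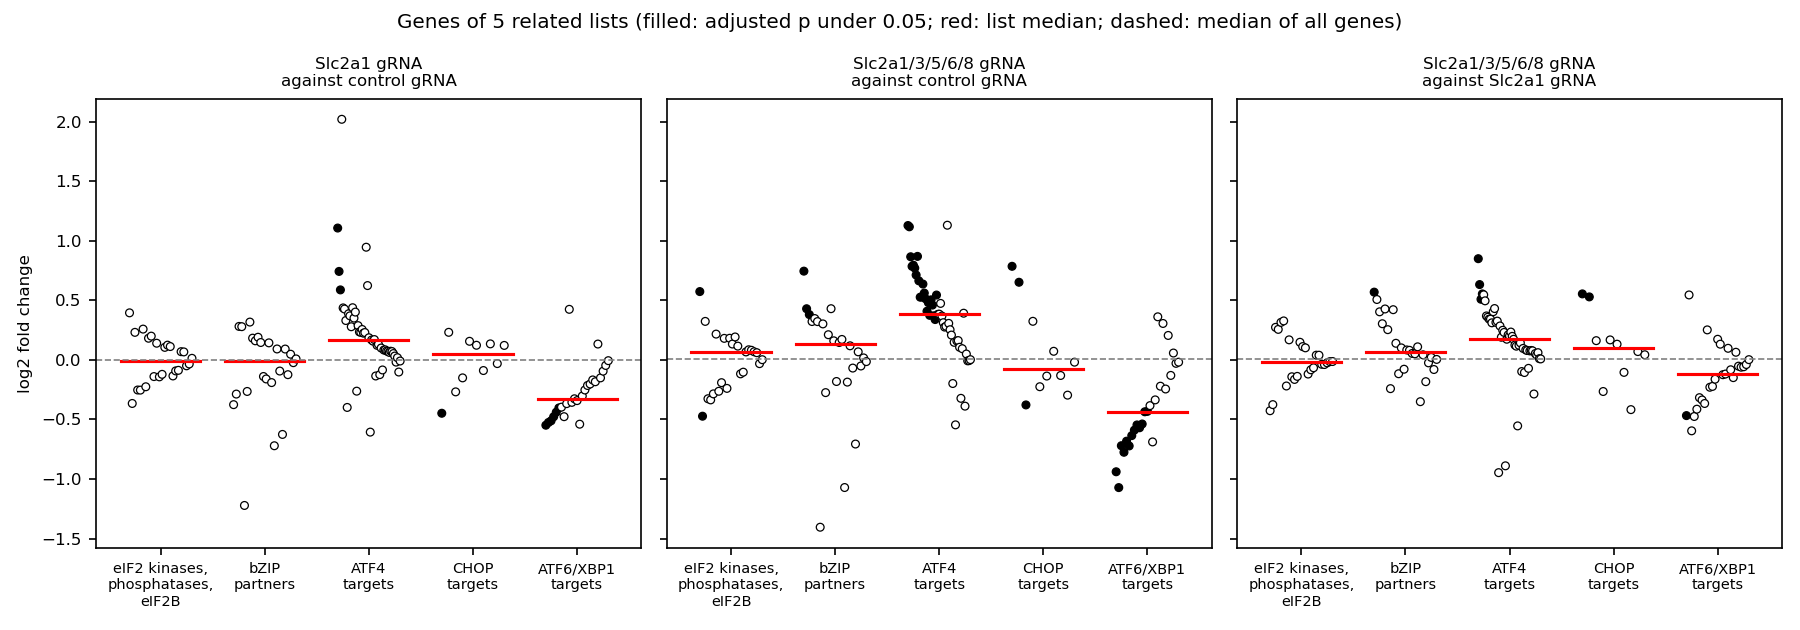
Log2 fold change of every tested gene of the 5 lists in the 3 comparisons (edgeR on counts of all 9 samples). Each point is a gene, filled where the adjusted p was under 0.05, the red line is the list's median and the dashed line the median of all genes. In the middle panel 23 ATF4 targets are filled above 0 and 13 ATF6 and XBP1 targets below it, with medians of 0.38 and -0.44.

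The genes with courses most like those of *Atf4*, *Ddit3* and *Trib3* were sought among 8306 genes with a mean of at least 5 TPM. Likeness was the root mean square difference over the 9 samples of log2 TMM-scaled counts centred on the control mean. For *Atf4*, *Crls1*, *Nmd3* and *Nat10* were nearest, at 0.0634, 0.0811 and 0.0816, beside a median of 0.330 over all genes. *Trib3* had *Pdcd2*, *Wars* and *Gnpnat1* nearest, at 0.101, 0.117 and 0.120, beside a median of 0.538. Nothing followed *Ddit3* as closely, with *Gm40414*, *Snhg5* and *Zfp874a* at 0.289, 0.350 and 0.362, beside a median of 0.709.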

How the data were processed

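The authors prepared oligo-dT cDNA with SMART-seq v4, sequenced paired 150-base reads and mapped them with Salmon 1.5.1 (version per the submitters' processing notes). They deposited 1 table per sample with an estimated count, a TPM value, a length and an effective length for each of 53077 genes. The estimated counts that the authors deposited are not whole numbers where reads fit several transcripts, and TPM as deposited sums to 1000000 per sample. The annotation and the settings are not given in the sources used here.

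Samples were grouped by the gRNA in their labels. The quasi-likelihood test of edgeR 4.0.16 (R 4.3.3) was applied to the rounded counts after TMM scaling, with the default filter on low counts, the replicate number as a block and Benjamini-Hochberg adjustment over 13834 genes at 0.05. The fit was also run on simulated counts with set changes in the *Slc2a1/3/5/6/8* gRNA samples. Against control it recovered 26 of 50 genes changed 1.5-fold and 28 of 50 changed 2-fold. At 3-fold and 4-fold it recovered 45 and 41 of 50, and 11 unchanged genes were called. A gene that did not pass may therefore still have changed. Levels are TPM. Alternatives were DESeq2 1.42.0, limma 3.58.1 on log2(TPM + 1) and log2(TPM + 0.1), no block, total count normalization, no filter, a minimum of 10 counts per sample, a fit of only the 2 groups in question, and leaving out each sample.

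The members and lists were chosen with earlier results of these data known. The genes named are the 10 regulators, of each list the 3 genes with the smallest adjusted p in each comparison against control (those that passed if fewer, or the smallest if none did), and the 3 genes most like *Atf4*, *Ddit3* and *Trib3*. Genes that passed between the deleted groups, and *Eif2ak3*, were named after their values were seen. The edited amplicons were not analysed here.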

Additional observations from a re-analysis of the deposited data

How the results depend on the processing

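Over 506 fits of single regulators under alternatives, 418 gave the same direction and side of the threshold, 78 no longer passed and 10 reversed, none of them with the *Slc2a1/3/5/6/8* gRNAs against control. With limma on log2(TPM + 1) and log2(TPM + 0.1), the regulators that passed were 0 and 1 in place of 3 with the *Slc2a1* gRNA (3 at an unadjusted p under 0.05 in each), 4 and 5 in place of 9 with the *Slc2a1/3/5/6/8* gRNAs, and 2 and 2 in place of 7 between the deleted groups, where a fit of only the 2 groups compared gave 3. Leaving out each sample gave 0 to 3, 6 to 9 and 3 to 7. On TPM the median of all genes shifted to -0.111 and -0.157 with the *Slc2a1* gRNA, where *Atf4* gave -0.0388 in both, *Nupr1* -0.0296 and -0.0300 and *Cebpg* -0.22 and -0.23. When each sample was left out, *Atf3* ran from -0.0606 (without control replicate 1) to 1.09 and *Ppp1r15a* from -0.26 to 0.13 (without control replicate 3) with the *Slc2a1* gRNA. Between the deleted groups *Atf3* ran from -0.10 (without *Slc2a1/3/5/6/8* gRNA replicate 1) to 1.14 and *Atf5* from -0.0938 (without *Slc2a1* gRNA replicate 3) to 0.57. The cause was not tested. Over all genes, 642, 2204 and 319 passed in the 3 comparisons. The first became 1255 with DESeq2, 1448 without a filter, 2268 with only the 2 groups, and 0 and 52 with limma (2367 and 2352 at an unadjusted p under 0.05), the second 433 and 462 with limma, and the third 758 with DESeq2, 974 without a filter, 129 without the block, 116 with only the 2 groups, and 31 and 32 with limma. Leaving out each sample gave 11 to 1291, 631 to 2559 and 42 to 383. The ATF4 targets passing were 0 to 16, 3 to 27 and 0 to 8 under the other alternatives, the ATF6 and XBP1 targets 0 to 15, 8 to 17 and 0 to 6, the CHOP targets 0 to 1, 0 to 3 and 0 to 2, the leucine zipper factors 0 to 5, 1 to 5 and 0 to 4, and the eIF2 list 0 to 2, 0 to 5 and 0 to 1.

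Without the replicate block, 3, 7 and 5 regulators passed in place of 3, 9 and 7. Deviations from the group mean correlated on average by 0.122, 0.0659 and -0.045 between same-numbered samples in the 3 comparisons. Their ranges were 0.09 to 0.167, -0.0553 to 0.15 and -0.0767 to -0.0135. For samples of other numbers the means were -0.0608, -0.0329 and 0.0227. These follow from the former because deviations within a group cancel, so they are no separate yardstick. The block follows the study's paired test, and whether same-numbered samples were handled together was not tested. *Atf3* had 1 to 17 estimated counts per library, and what limited its measurement was not tested.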
